A study of Arabidopsis thaliana with 50 samples.

Results

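Flowering Locus C (FLC), its 5 relatives FLM (also called MAF1), MAF2, MAF3, MAF4 and MAF5, and Short Vegetative Phase (SVP) were followed by gene ID through all 50 RNA-seq libraries of the series, as 7 of the 37338 genes counted in each library (AT5G10140, AT1G77080, AT5G65050, AT5G65060, AT5G65070, AT5G65080 and AT2G22540, in that order). Whole Arabidopsis thaliana seedlings were collected at 8 days of age from plates in long days, with 5 seedlings combined in a library. Col-0, med12 (the T-DNA allele cct-2) and med13 (gct-2) had 4 libraries each. A second set of plants carried the SDC:GFP reporter transgene, and comprised wild type, ddc (the triple mutant drm1 drm2 cmt3, which lacks most non-CG DNA methylation) and ddc/med13 (med13 mutated by CRISPR) with 4 libraries each, morc1 replicates 1 to 4 with morc1/med13 (4 libraries, the gct-2 allele), and morc1 replicates 5 to 7 with morc1/med12 (3 libraries, a CRISPR frame shift). Of these labels only that of the wild type names the transgene. For the mutants it was taken from the paper's description of the lines. Col-0 and med12 seedlings without the transgene were also kept in darkness for 24 h before collection (dark). Further such seedlings were given 15 min of light after that darkness (light), with 3 libraries in each of these 4 groups. The labels do not say whether libraries of a group came from separate plates or days, so p-values measure the spread between these libraries.

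All 7 genes encode MADS-box transcription factors that delay flowering. FLC and its relatives form 1 clade, and FLC with SVP binds and represses FT, which encodes the mobile florigen, and SOC1, a MADS-box gene that promotes flowering. FLM and MAF2 act with SVP as repressors that respond to ambient temperature, MAF3 and MAF4 can join the same complexes, and FLC itself is switched off by Polycomb repression after winter cold. MED12 and MED13 are subunits of the kinase module of Mediator, the complex that links transcription factors to RNA polymerase II.

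The clade is close in sequence, which bears on whether a short read can be assigned to one gene. The first 180 coding bases, which hold the MADS box, are shown from the RefSeq annotation of TAIR10.1 for FLC, for MAF2, its nearest relative by this measure, and for SVP, the most distant of the 7. Capitals mark the longest run in MAF2 or SVP that is identical to FLC at the same position.
FLC, chr5:3179160-3179339, strand minus: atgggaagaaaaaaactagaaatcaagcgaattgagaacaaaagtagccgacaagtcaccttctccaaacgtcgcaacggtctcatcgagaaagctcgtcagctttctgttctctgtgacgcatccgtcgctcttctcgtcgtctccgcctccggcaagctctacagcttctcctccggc
MAF2, chr5:25982415-25982594, strand plus: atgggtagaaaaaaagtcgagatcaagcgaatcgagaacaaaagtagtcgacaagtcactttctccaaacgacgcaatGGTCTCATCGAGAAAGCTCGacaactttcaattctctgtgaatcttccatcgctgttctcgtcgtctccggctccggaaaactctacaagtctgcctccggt
SVP, chr2:9580417-9580596, strand plus: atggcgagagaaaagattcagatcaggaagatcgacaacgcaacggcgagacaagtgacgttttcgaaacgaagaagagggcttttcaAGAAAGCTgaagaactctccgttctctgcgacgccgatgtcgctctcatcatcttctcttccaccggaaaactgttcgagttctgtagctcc
Over these bases MAF2 was 85% identical to FLC, FLM 83.3%, MAF3 82.2%, MAF5 81.7%, MAF4 81.1% and SVP 62.8%. For MAF5 the 180 bases compared started after 21 coding bases, the offset with the most bases identical to FLC. The longest run shared with FLC was 20 bases in MAF2 and 8 bases in SVP. Reads were 50 bases long, and between 97.54% (MAF3) and 100% of the 50-base windows in the exons of a member occurred once in the genome, so few reads could have been shared between members. MAF2, MAF3, MAF4 and MAF5 lie in tandem on chromosome 5, separated by 873, 780 and 1301 bp, while FLC is elsewhere on chromosome 5, FLM is on chromosome 1 and SVP is on chromosome 2.

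Libraries held between 2767761 and 6786822 counts, and those of the SDC:GFP plants were the shallower ones. MED12 fell in med12, to 62.2 ± 1.5 CPM (counts scaled to a common library size, with TMM factors) from 166 ± 4.4 in Col-0 (SD, n = 4 each), MORC1 was at 23.8 ± 1.6 CPM in morc1 replicates 1 to 4 against 35.2 ± 2.6 in SDC:GFP wild type, and CMT3 fell to 20.7 ± 2.2 CPM in ddc from 77.0 ± 6.3. MED13 was not lower in med13 (124 ± 6.5 CPM) than in Col-0 (109 ± 4.1), so its level does not check that label. The same held for the other Mediator mutants: MED12 was at 147 ± 4.4 CPM in morc1/med12 and 130 ± 5.7 in its morc1 control (n = 3 each), MED13 at 125 ± 5.7 CPM in ddc/med13 and 97.8 ± 11 in ddc, and MED13 at 108 ± 4.2 CPM in morc1/med13 and 114 ± 2.3 in its morc1 control (n = 4 each). The green tissue marker RBCS1A had 714 to 728 counts in Col-0 and 671 to 680 in SDC:GFP wild type, although the median total was 6037499 against 3457076 counts. With duplicate reads removed, such abundant genes had nearly the same count at any depth and their CPM does not measure tissue, so levels were compared between sets of plants of different depth only as a description.

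FLC was the one member that passed the test in med12 and in med13, where passing means an adjusted p under 0.05 together with a change above 1.5-fold in edgeR's quasi-likelihood test. FLC was measured at 10.3, 7.73, 5.69 and 7.05 CPM in the 4 Col-0 libraries, at 25.2, 26.2, 25.4 and 20.7 CPM in med12, and at 36.7, 38.8, 30.6 and 39.1 CPM in med13. Every med12 and med13 library lay above every Col-0 library, and the med12 and med13 libraries did not overlap either. The log2 fold change was 1.68 (SE 0.15, adjusted p = 2.2e-06) in med12, which is 3.21-fold, and 2.26 (SE 0.14, adjusted p = 1.4e-07) in med13, which is 4.78-fold. Of all 20788 features tested, 12.8% passed in med12 and 13.4% in med13, against 1 of 7 members in each, so the share of the members was close to that of all features. Both comparisons share the Col-0 libraries. Between med13 and med12 the difference in FLC was 0.57 on the log2 scale (95% interval 0.32 to 0.83, adjusted p = 0.0035), which at 1.49-fold fell just under the fold threshold. No member passed between the 2 mutants, where 5.06% of all features did and 3 members had an adjusted p under 0.05, and FLC would have passed without med12 replicate 1 (log2 fold change 0.59), without med12 replicate 2 (0.61) or without med13 replicate 3 (0.64).

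**Figure D1:**
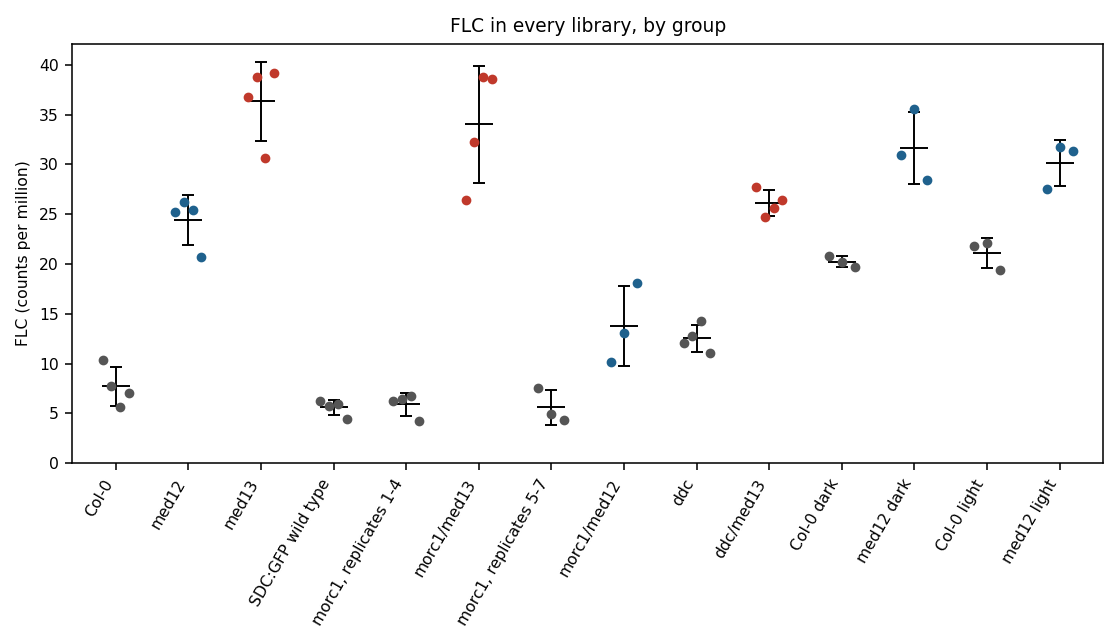
FLC in CPM (vertical axis) in every library of the 14 groups (horizontal axis). Points are libraries, red for groups with med13 mutated, blue for med12 and grey for the rest, and black bars are the mean and SD; Col-0 libraries sit between 5.69 and 10.3 and med13 libraries between 30.6 and 39.1.

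None of the other 6 members passed in either mutant. In med12 the log2 fold changes of FLM (-0.0031, 95% interval -0.09 to 0.08) and MAF2 (-0.00068, -0.10 to 0.10) were near 0. That of SVP was 0.09 (0.0039 to 0.18), with an unadjusted p of 0.056 and an adjusted p of 0.12 although this interval leaves out 0. In med13, FLM (0.14, adjusted p = 0.026), MAF2 (0.19, adjusted p = 0.0030) and MAF3 (0.17, adjusted p = 0.049) were higher with adjusted p under 0.05 but far under 1.5-fold. MAF2, for example, was measured at 61.5, 56.3, 55.9 and 62.8 CPM in Col-0 and at 67.9, 67.9, 65.7 and 65.8 CPM in med13. The intervals were wide for the weakly expressed MAF4 (-0.18 to 0.79 in med12) and MAF5 (-0.91 to 0.61), the latter with 6 to 11 counts per library in both Col-0 and med12. The median log2 fold change over the 7 members was 0.09 in med12 and 0.17 in med13, beside -0.0017 and 0.0074 over all features.

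FLC is also covered by an annotated long noncoding RNA on the opposite strand, AT5G01675, which overlaps all 6067 bp of the FLC gene. The authors counted with strand, so reads of the 2 genes are told apart. The antisense gene had 0, 2, 0 and 3 counts in the Col-0 libraries, 4, 4, 4 and 6 in med12, and 7, 7, 11 and 4 in med13. It had 0 counts in all of morc1 replicates 1 to 4 and 1, 4, 6 and 6 in morc1/med13. These counts were highest in groups with high FLC, but they are at or near the limit of 3 counts below which a level is not resolved, and no test is given.

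In the base sequence just before the FLC transcript start, 2 short motifs known from other plant promoters occurred, the G-box and the evening element, a motif of clock-regulated genes. The 250 bases before the annotated start are shown because FLC is the member that moved in the mutants, with both motifs in capitals.
FLC, chr5:3179449-3179698, strand minus: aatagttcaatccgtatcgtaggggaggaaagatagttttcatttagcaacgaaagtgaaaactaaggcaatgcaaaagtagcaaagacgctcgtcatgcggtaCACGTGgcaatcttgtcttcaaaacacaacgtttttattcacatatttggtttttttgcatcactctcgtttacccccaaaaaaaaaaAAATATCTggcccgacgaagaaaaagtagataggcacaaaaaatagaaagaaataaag
The G-box (CACGTG) was found in 6.49% of 27443 promoters of the same length and the evening element (AAATATCT) in 4.79%, both strands searched, and the 2 matches do not overlap. The other motifs searched, the RY element (CATGCA), the I-box core (GATAAG) and the CArG box, the recognition motif of MADS proteins, had no match in the 250 bases of any of the 7 members. A match of letters is a description of the sequence and was not tested for binding.

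In morc1, which lacks an ATPase that compacts heterochromatin, FLC did not pass. The labels name no wild-type control for morc1 or ddc, and SDC:GFP wild type was chosen here. The paper describes its own morc1 comparison as one with wild type (Col-0). FLC was at 6.26, 6.42, 6.77 and 4.19 CPM in morc1 replicates 1 to 4 and at 6.2, 5.73, 5.96 and 4.48 CPM in SDC:GFP wild type, with a log2 difference of 0.08 (95% interval -0.39 to 0.54). FLM, MAF2, MAF3 and SVP had intervals within -0.24 to 0.24 in the same comparison, and 0 of 5 members tested passed (also 0 at an unadjusted p under 0.05), beside 2.57% of all features. MAF4 and MAF5 were left out of that test by the filter on low counts.

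Adding a med12 or med13 mutation to morc1 went with higher FLC. FLC was at 26.4, 32.3, 38.8 and 38.6 CPM in morc1/med13, above all 4 morc1 libraries, with a log2 fold change of 2.52 (SE 0.18, adjusted p = 8.3e-06), which is 5.73-fold. In morc1/med12 it was at 10.2, 13.1 and 18.1 CPM against 7.56, 4.95 and 4.3 CPM in morc1 replicates 5 to 7, with no overlap and a log2 fold change of 1.29 (SE 0.27, adjusted p = 0.017). That second call did not hold without morc1 replicate 6 (adjusted p = 0.075), without morc1/med12 replicate 2 (0.054) or without morc1/med12 replicate 3 (0.063), although the log2 fold change stayed between 1.04 and 1.56. FLC was the 1 of 6 members tested that passed in each comparison, beside 5.48% of all features in morc1/med12 (1106 features, or 723 without morc1 replicate 6) and 18.9% in morc1/med13. The difference of the med12 effect on FLC between morc1 and wild-type plants was -0.38 on the log2 scale (95% interval -1.08 to 0.31, adjusted p = 0.50), and that of the med13 effect was 0.31 (-0.26 to 0.87, adjusted p = 0.44), so neither was shown to differ and neither was shown to be equal. Of all features, 13.5% and 23.2% differed at an adjusted p under 0.05 in these 2 contrasts, against 0 of 7 and 1 of 6 members (none and 1 at an unadjusted p under 0.05). Both contrasts set SDC:GFP plants against plants without the transgene, so the genotype cannot be told apart from the transgene or from library depth. The med12 contrast also sets the CRISPR frame shift against the cct-2 allele.

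SVP was the member that differed in the med13 contrast. SVP was measured at 87.8, 81.0, 80.0 and 89.0 CPM in morc1/med13 and at 99.8, 115, 108 and 98.0 CPM in morc1, so that all 4 double mutant libraries lay below. The log2 difference was -0.32 (SE 0.065, adjusted p = 0.0033), short of 1.5-fold. In med13 against Col-0, SVP was 0.11 higher (95% interval 0.02 to 0.20, adjusted p = 0.050), and the difference between the 2 effects was -0.38 (SE 0.077, adjusted p = 0.0018). SVP had 409 to 439 counts in Col-0 and 327 to 396 in morc1, at median totals of 6037499 and 3494850. The part of duplicate removal and depth in that contrast was not tested. Without morc1/med13 replicate 4, MAF5 also entered that contrast and differed (-2.80, adjusted p = 0.023). MAF5 had 0, 1, 1 and 3 counts in morc1/med13 and 4, 4, 6 and 6 in morc1; it was removed by the filter, and without the filter its log2 fold change was -1.80 (adjusted p = 0.047).

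In ddc, FLC rose before any Mediator mutation was added. FLC was at 12, 12.7, 14.3 and 11.1 CPM in ddc, all above the SDC:GFP wild type, with a log2 fold change of 1.16 (SE 0.18, adjusted p = 9.5e-05), which is 2.24-fold. MAF2 was at 77.3, 68.7, 74.6 and 71.7 CPM in ddc and at 62.7, 57.0, 58.4 and 57.0 CPM in the wild type, and its difference of 0.31 (SE 0.061, adjusted p = 6.7e-04) was under 1.5-fold. Of 5 members tested 1 passed, beside 27.3% of all features, the highest share among the comparisons of 2 groups.

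In ddc/med13, FLC rose again, to 27.8, 24.7, 25.6 and 26.4 CPM, above all ddc libraries. The log2 fold change against ddc was 1.07 (SE 0.13, adjusted p = 1.3e-04), or 2.1-fold, and 1 of 5 members passed beside 15% of all features. MAF3 was at 32.5, 30.6, 31.5 and 34.2 CPM against 22.9, 30.4, 24.1 and 26.5 CPM in ddc, with a log2 difference of 0.32 (95% interval 0.07 to 0.57, adjusted p = 0.053). The FLC change of ddc/med13 against ddc was smaller than that of med13 against Col-0. The difference between the effects was -1.16 on the log2 scale (SE 0.20, adjusted p = 9.7e-04). FLC levels in ddc/med13 lay below those of all med13 libraries. MAF2 also differed, by -0.26 (SE 0.073, adjusted p = 0.019; 0.056 with DESeq2, and 0.050 without Col-0 replicate 3), so that 2 of 6 members did, beside 23% of all features. SVP, at -0.25 (adjusted p = 0.053), missed the threshold. This contrast also sets SDC:GFP plants against plants without the transgene. It sets the CRISPR allele of med13 against gct-2 and shallower libraries against deeper ones as well. Methylation, allele, transgene and library depth therefore cannot be told apart in it.

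**Figure D2:**
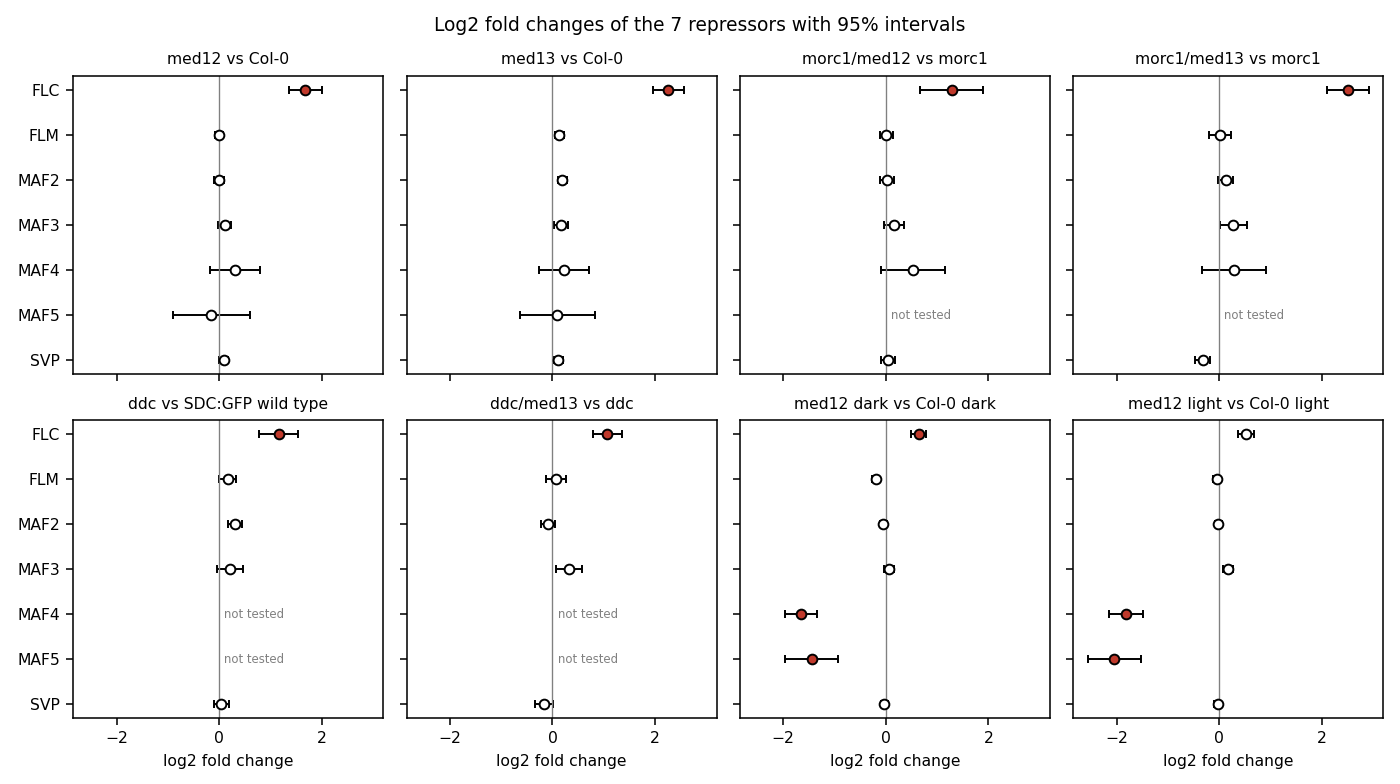
Log2 fold changes (horizontal axis) of the 7 members (vertical axis) in 8 comparisons of 2 groups, with 95% intervals. Filled points passed both thresholds, and "not tested" marks members removed by the filter on low counts; FLC passed in 7 of the 8 panels, and MAF4 and MAF5 passed only in the last 2.

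In seedlings kept in darkness the picture among the members was different, with MAF4 and MAF5 far lower in med12 than in Col-0. MAF4 was measured at 11.7, 14.5 and 11.3 CPM in Col-0 dark and at 4.7, 3.26 and 3.93 CPM in med12 dark, and MAF5 at 5.53, 4.27 and 4.73 CPM against 1.14, 2.08 and 2.1 CPM. The groups did not overlap for either gene. The log2 fold changes were -1.65 for MAF4 (SE 0.15, adjusted p = 3.1e-12) and -1.45 for MAF5 (SE 0.26, adjusted p = 9.3e-06). FLC passed in the other direction, at 20.8, 20.2 and 19.7 CPM in Col-0 dark and 30.9, 35.6 and 28.5 CPM in med12 dark, with a log2 fold change of 0.64 (SE 0.075, adjusted p = 1.4e-09); without med12 dark replicate 2 it was 0.55, under 1.5-fold. FLM was lower in med12 dark by 0.20 on the log2 scale (log2 difference -0.20, adjusted p = 2.2e-04), and MAF2, MAF3 and SVP had intervals within -0.12 to 0.17. In all, 3 of 7 members passed, beside 13.4% of all features. All 3 seed storage markers rose in this comparison (log2 fold changes 6.52 to 10.31, summed level 0.457 to 2.05 CPM in Col-0 dark and 145 to 274 CPM in med12 dark), as did EXP7 of the 2 root hair markers (0.94), and their part in the result was not tested.

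The same 2 genes passed after 15 min of light. MAF4 was at 12.3, 12.9 and 12.5 CPM in Col-0 light and at 3.84, 3.74 and 3.04 CPM in med12 light, a log2 fold change of -1.82 (SE 0.16, adjusted p = 5.1e-13). MAF5 was at 5.92, 6.31 and 5.69 CPM against 2.08, 1.5 and 0.76 CPM, a log2 fold change of -2.04 (SE 0.26, adjusted p = 1.0e-08). FLC was higher by 0.52 (SE 0.076, adjusted p = 2.2e-07), at 1.43-fold, and did not reach the fold threshold. Thus 2 of 7 members passed, beside 14.2% of all features, and again all 3 seed storage markers rose (4.25 to 5.79), as did EXP7 (0.87).

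The 15 min of light itself was not followed by a change of any member past the thresholds. In Col-0 0 of 7 passed, beside 2.88% of all features, and 1 of 7 had an unadjusted p under 0.05. That was FLM, which went from 91.1, 91.9 and 91.5 CPM in the dark to 79.3, 82.9 and 85.9 CPM in the light, a log2 difference of -0.15 (adjusted p = 0.019, and 0.17 with DESeq2). In med12 0 of 7 passed, with none at an unadjusted p under 0.05, beside 1.77% of all features. The light effect did not differ between med12 and Col-0 for any member at an adjusted p under 0.05 (0 of 7). Of all features 1.04% differed at that adjusted p, which is 221 features, or 141 without med12 dark replicate 1. Of the members, 1 had an unadjusted p under 0.05. For FLC the 95% interval of the light effect was -0.11 to 0.23 in Col-0 and -0.20 to 0.07 in med12.

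The 2 members that were low in med12 in the dark also share promoter sequence. The 250 bases before their annotated starts are shown with the longest run that both hold on the same strand, 20 bases, in capitals.
MAF4, chr5:25991943-25992192, strand plus: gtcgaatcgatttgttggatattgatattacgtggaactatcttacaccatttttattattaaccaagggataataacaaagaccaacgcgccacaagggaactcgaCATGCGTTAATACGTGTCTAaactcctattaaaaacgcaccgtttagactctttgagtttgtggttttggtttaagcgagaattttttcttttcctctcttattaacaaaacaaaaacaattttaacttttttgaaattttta
MAF5, chr5:25997254-25997503, strand plus: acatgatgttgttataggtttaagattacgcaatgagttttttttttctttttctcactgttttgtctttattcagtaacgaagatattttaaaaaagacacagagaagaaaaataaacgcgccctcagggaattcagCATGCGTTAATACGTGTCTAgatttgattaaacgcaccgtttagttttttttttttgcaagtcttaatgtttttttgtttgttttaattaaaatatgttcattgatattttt
This run, CATGCGTTAATACGTGTCTA, starts 143 bases before the MAF4 transcript and 112 bases before that of MAF5, and of 27443 promoters 2 hold it, those of MAF4 and MAF5. MAF5 also has an evening element on the opposite strand, not in capitals. FLM, MAF2 and MAF3, which did not pass in these comparisons, share another run of 18 bases, AACCAATTTCTGTTCGGT, found in 3 of the 27443 promoters. The longest run shared by any pair of members, 35 bases, is held by FLM and MAF2 and by no other promoter, and MAF4 also shares a run of 18 bases with MAF2, so shared runs were not particular to the members that passed. Neighbouring copies of a gene family share sequence by descent, and the part of these runs in the expression of the genes was not tested.

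The dark libraries were also set against those of long days within each genotype. In Col-0, MAF4 rose from 2.58, 3.63, 3.74 and 4.49 CPM in long days to the dark values above, a log2 fold change of 1.78 (SE 0.20, adjusted p = 9.3e-07). MAF5 rose from 1.38, 0.95, 1.79 and 1.6 CPM, a log2 fold change of 1.76 (SE 0.26, adjusted p = 2.1e-05), FLC by 1.40 (SE 0.15, adjusted p = 3.5e-07) and FLM by 0.67 (SE 0.036, adjusted p = 9.8e-11). In Col-0 dark 4 of 7 members passed both thresholds, beside 20.5% of all features. All 7 were higher with adjusted p under 0.05 and without overlap of the libraries. The share of all features at that p alone, or without overlap, was not counted, so the 7 of 7 has no share to stand beside. For SVP, with a log2 difference of 0.13 (adjusted p = 0.019), the adjusted p was 0.10 without Col-0 replicate 2, 0.053 without Col-0 dark replicate 1 and 0.068 with DESeq2. Both root hair markers fell in the same comparison, COBL9 from 23.9 ± 4.2 to 12.2 ± 1.2 CPM and EXP7 from 23.9 ± 3.7 to 9.49 ± 1.2 CPM (log2 fold changes -0.97 and -1.33), and their part in the result was not tested. The labels do not say whether long-day and dark libraries were made together. The paper says that its RNA-seq plants were grown and harvested together. Darkness cannot be told apart here from any other difference between these groups of libraries. The median over the members was 0.67, beside -0.0026 over all features.

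In med12, by contrast, MAF4 stayed at 4.89, 4.89, 5.12 and 2.8 CPM in long days and 4.7, 3.26 and 3.93 CPM in the dark, with overlapping libraries and a log2 difference of -0.17 (95% interval -0.65 to 0.32). MAF5 had a difference of 0.47 (-0.20 to 1.13) and FLC one of 0.36 (SE 0.11, adjusted p = 0.0084). FLM (0.48), MAF2 (0.30) and MAF3 (0.37) were higher with adjusted p under 0.05 and less than 1.5-fold. In med12 0 of 7 members passed, beside 19.1% of all features that did. At an unadjusted p under 0.05 alone there were 4 members, and the share of all features at that p was not counted. The effect of med12 differed between dark and long days for MAF4 (log2 difference of effects -1.95, SE 0.31, adjusted p = 1.8e-04) and for FLC (-1.04, SE 0.18, adjusted p = 4.7e-04). It also differed for MAF5 (-1.29, adjusted p = 0.033) and FLM (-0.19, adjusted p = 0.036), but these 2 calls were lost with DESeq2 (adjusted p = 0.093 and 0.13) and without the filter (0.054 and 0.076). With 1 library left out, the MAF5 call was lost in 7 of 14 fits (adjusted p up to 0.092) and the FLM call in 10 of 14 (up to 0.12). That made 4 of 7 members, beside 23.5% of all features, and 2 of 7 when any of Col-0 replicates 1 or 2, Col-0 dark replicates 1 or 3 or med12 dark replicate 1 was left out.

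**Figure D3:**
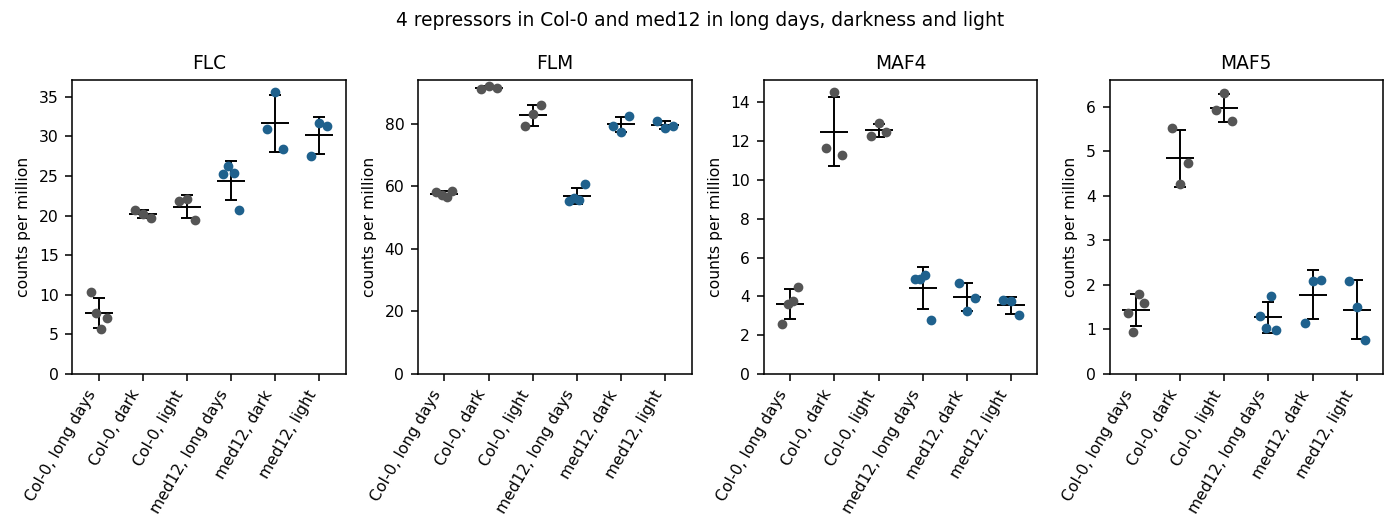
FLC, FLM, MAF4 and MAF5 in CPM (vertical axes, each from 0) in Col-0 (grey) and med12 (blue) in long days, after 24 h of darkness and after 15 min of light (horizontal axis). Points are libraries and bars the mean and SD; MAF4 is at 11.3 to 14.5 in Col-0 dark and at 3.26 to 4.7 in med12 dark, while FLM is high in the dark in both genotypes.

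Over the 14 groups FLC had the second widest range of group means among the 7, from 5.59 CPM in SDC:GFP wild type to 36.3 in med13, a ratio of 6.49. The order from the top was med13 (36.3 ± 4.0 CPM), morc1/med13 (34.0 ± 5.9), med12 dark (31.7 ± 3.6), med12 light (30.2 ± 2.3), ddc/med13 (26.1 ± 1.3), med12 (24.4 ± 2.5), Col-0 light (21.1 ± 1.5), Col-0 dark (20.2 ± 0.55), morc1/med12 (13.8 ± 4.0), ddc (12.5 ± 1.4), Col-0 (7.70 ± 1.9), morc1 replicates 1 to 4 (5.91 ± 1.2), morc1 replicates 5 to 7 (5.61 ± 1.7) and SDC:GFP wild type (5.59 ± 0.77), as means ± SD with the n given above. Of the 13 pairs of neighbours in this order 11 overlapped, and the libraries separated only between Col-0 dark and morc1/med12 and between ddc and Col-0. Every group with a med12 or med13 mutation had a higher mean than its own control.

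MAF5 had the widest range, a ratio of 14.8 between Col-0 light (5.97 ± 0.32 CPM) and morc1/med13 (0.40 ± 0.42), the latter at 0 to 3 counts per library. MAF4 ranged from 2.65 CPM in ddc to 12.6 in Col-0 light, and the 2 Col-0 groups of the light experiment were the highest for both genes and overlapped with no other group. FLM (ratio 1.75) and MAF3 (1.86) were highest in the dark and light groups. For FLM, Col-0 dark stood above all others at 91.1 to 91.9 CPM. MAF2 (ratio 1.3) varied least and its neighbours in the order all overlapped. SVP (ratio 1.6) had no gap in its order, but its level followed the set of plants, with 64.5 to 72.3 CPM in Col-0 and 103 to 115 CPM in SDC:GFP wild type. In counts SVP was at 409 to 439 in Col-0 and 340 to 386 in SDC:GFP wild type, closer than the library totals, and the part of duplicate removal and depth in this difference was not tested. The 2 sets of morc1 libraries, which share a genotype, also differed in SVP, at 98.0 to 115 CPM in replicates 1 to 4 and 69.9 to 79.3 CPM in replicates 5 to 7.

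**Figure D4:**
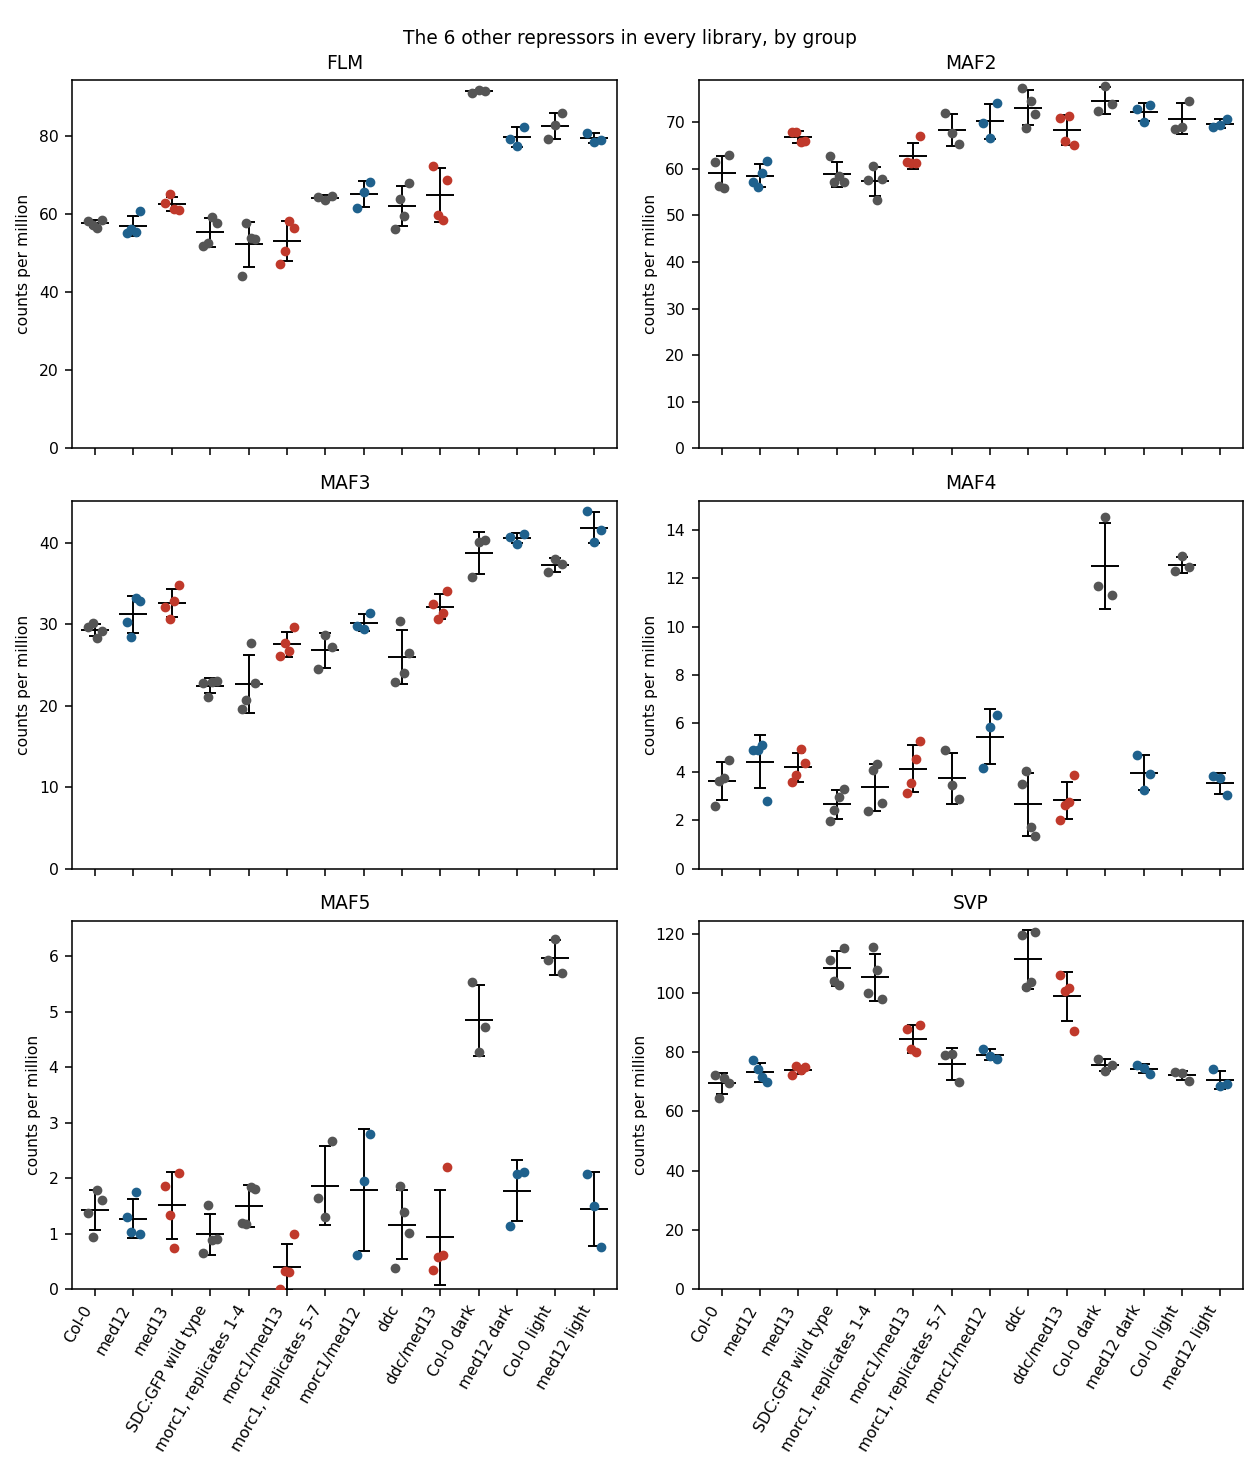
FLM, MAF2, MAF3, MAF4, MAF5 and SVP in CPM (vertical axes, each from 0) in every library of the 14 groups (horizontal axis). Points are libraries, red for groups with med13 mutated, blue for med12 and grey for the rest, and bars are the mean and SD; the 2 Col-0 groups of the light experiment stand apart for MAF4 and MAF5.

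To compare levels between members, CPM was divided by the length in kb of the mRNA with the longest coding sequence. In Col-0 MAF2 (55.1 ± 3.3 CPM per kb), FLM (52.6 ± 0.81) and SVP (38.8 ± 1.9) were the most abundant, followed by MAF3 (25.4 ± 0.68), FLC (7.39 ± 1.9), MAF4 (3.57 ± 0.78) and MAF5 (1.81 ± 0.46). In med13 FLC reached 34.9 ± 3.8 CPM per kb, between MAF3 (28.2 ± 1.5) and SVP (41.3 ± 0.73). The choice of length matters for FLM and MAF2, whose annotated isoforms keep introns: divided by all exonic bases they were at 12.9 and 17.5 CPM per kb in Col-0, below MAF3 (20.0) and SVP (38.8). Duplicate reads had been removed, so that a very abundant gene cannot be counted in full. Over all exonic bases the densest member was SVP in med12 dark, with up to 0.297 counts per base. Over the mRNA alone FLM and MAF2 were denser than that measure shows. FLM had up to 610 counts in Col-0 dark on an mRNA of 1095 bases, and MAF2 up to 525 in med12 dark on 1073 bases. The part of duplicate removal in their levels was not tested.

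FT and SOC1, the targets of FLC and SVP, were given whatever their values. FT was barely counted in 8-day seedlings, with 4 to 6 counts in Col-0 libraries, 0 or 1 in med12 and 0 or 1 in med13, and 0 in every ddc, ddc/med13 and morc1/med13 library. In morc1 replicates 5 to 7 it had 8 to 16 counts, against 0 or 1 in morc1/med12. SOC1 was at 46.8 ± 4.9 CPM in Col-0, 40.1 ± 4.4 in med12 and 33.5 ± 3.6 in med13 (log2 difference -0.46, SE 0.094, adjusted p = 0.0017, under 1.5-fold). It fell in ddc/med13 against ddc, from 82.1 ± 8.0 to 36.7 ± 2.8 CPM (log2 fold change -1.15, adjusted p = 7.9e-06), and in morc1/med13 against morc1, from 37.5 ± 2.7 to 22.1 ± 3.5 CPM (-0.76, adjusted p = 7.3e-04). In ddc SOC1 was not low where FLC was raised: it was higher than in wild type by 0.47 on the log2 scale (adjusted p = 2.2e-04). SOC1 also fell in morc1 against SDC:GFP wild type by 0.66 on the log2 scale (adjusted p = 2.4e-06), where FLC had not passed.

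Genes known to act on FLC, targets and floral activators, and other floral repressors were counted by lists of 57 genes in all. In med12 and in med13 against Col-0, none passed among the 6 of the FRIGIDA complex (which activates FLC), the 6 of the PAF1 complex, the 5 of the SWR1 complex and histone methyltransferases, the 8 of the autonomous pathway (which represses FLC) and 9 tested of 10 Polycomb and vernalization genes. Their log2 fold changes lay between -0.35 and 0.34. In morc1/med12, ddc/med13, med12 dark and med12 light against their controls, none of these genes passed either. In morc1/med13 against morc1 1 of 6 in the FRIGIDA list rose (FRL1, 0.65). In ddc against SDC:GFP wild type 1 of 6 in the PAF1 list rose (VIP5, 0.65), 1 of 5 in the SWR1 list (SWC6, 1.19) and 1 of 9 tested in the Polycomb list (LHP1, 0.61), and 1 of 8 in the autonomous list fell (FPA, -0.61), beside the 27.3% of all features given above. These 5 genes were named after their values were seen. Over all lists 6 of 51 genes tested passed in med12 and 4 of 51 in med13, no larger a share than the 12.8% and 13.4% of all features. Those that passed were among other floral repressors, where in med12 2 of 11 rose and 2 fell and in med13 2 fell, and among targets and floral activators, where 2 of 6 tested fell in each mutant. AP2, a floral repressor with a role in floral organs, fell by 0.67 in med12 and by 0.68 in med13 on the log2 scale (adjusted p = 5.9e-06 in both). SMZ and SNZ, relatives of AP2, rose by 0.88 (adjusted p = 1.2e-05) and 0.95 (adjusted p = 2.3e-05) in med12. In med13 SMZ did not reach 1.5-fold (0.50) and SNZ was lower (-0.43). TFL1, a repressor related to FT, was at 2.11 to 5.45 CPM in Col-0, 0.64 to 1.3 in med12 and 0 to 0.3 in med13, the last with 0 to 2 counts. CO, the activator of FT in long days, fell by 1.85 in med12 (adjusted p = 1.2e-04) and by 0.89 in med13 (adjusted p = 0.011) on the log2 scale. SEP3, a MADS-box gene of floral organs, fell by 1.70 (adjusted p = 7.5e-05) and 2.08 (adjusted p = 2.1e-05). In the dark against long days, FRL2, of the FRIGIDA complex list, rose by 0.97 in Col-0 and 0.91 in med12 on the log2 scale, and FCA, of the autonomous pathway list, by 0.91 and 0.85. They were the 1 of 6 and 1 of 8 genes of their lists that passed in each genotype, beside 20.5% and 19.1% of all features, and were named after their values were seen.

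Markers of other tissues moved with some of these groups. Summed seed storage markers (CRA1, CRU3 and OLE1, all 3 past the thresholds in med12 and in med13) were at 1.46 to 8.27 CPM in Col-0, 33.4 to 329 in med12, 30.9 to 503 in med13, 0.905 to 3.26 in SDC:GFP wild type, 14.1 to 109 in morc1 replicates 1 to 4, 94.6 to 790 in morc1/med13 and 4.63 to 232 in ddc/med13. In the last of these groups the FLC values lay between 24.7 and 27.8 CPM. Summed shoot meristem markers (STM, with WUS too low to test) were at 9.3 to 11.7 CPM in Col-0, 16.3 to 22.2 in med12 and 13.0 to 34.3 in med13. They were at 14.8 to 17.6 in Col-0 dark, 29.7 to 35.1 in med12 dark, 15.6 to 17.4 in Col-0 light and 31.6 to 33.6 in med12 light. In morc1/med12 they were at 14.4 to 15.8 against 7.15 to 8.62 in its control, and in morc1/med13 at 13.8 to 17.6 against 5.39 to 8.64. In ddc/med13 they were at 7.4 to 16.5 against 3.42 to 6.6 in ddc, where SDC:GFP wild type was at 6.53 to 9.66. Of 3 floral organ markers PI was the 1 tested, and it rose in med12 and in med13. The part of these tissues in the FLC result was not tested. Fewer cells of a type and less RNA per cell cannot be told apart in whole seedlings.

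The 2 genes most like each member were found by Pearson's r between group means of log2 CPM over the 14 groups, among 21625 genes. For FLC these were AT1G53180 (r = 0.979) and AT4G33120 (r = 0.964). For FLM they were ATCG00660 (0.955) and AT2G03780 (0.954), for MAF2 ATCG01080 (0.907) and AT1G06233 (0.903), for MAF3 AT1G30755 (0.983) and AT3G52526 (0.978), for MAF4 AT2G25297 (0.933) and ABCG40 (0.928), for MAF5 AT4G20930 (0.940) and AT3G24715 (0.922), and for SVP ALDH2C4 (0.956) and CLPX (0.952). Among the members themselves r was 0.83 for MAF4 with MAF5, 0.86 for FLM with MAF3 and -0.03 for FLC with MAF5. The 14 points share library sets and depths, so these values are descriptions.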

How the data were processed

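Whole 8-day seedlings gave 50 RNA-seq libraries of 14 groups, and replicate numbers and groups were taken from the labels. Per the paper's methods, the authors trimmed the 50-base single-end reads with Trim Galore, used STAR for alignment to TAIR10 and Picard for the removal of PCR duplicates, and counted reads per Araport11 gene or TE with HTSeq 0.6.1, using strand. The deposited values are whole-number counts, not normalized, for 68527 features (37338 genes and 31189 TEs). Lines of reads without a feature (2.2% to 5.03%) or ambiguous (0.618% to 0.919%) stayed out of the totals, and 6 files hold no such lines.

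The 7 members and all lists were chosen with earlier results of these data known. Features passing edgeR's filterByExpr were scaled with TMM and tested with edgeR 4.0.16 (glmQLFit and glmQLFTest, R 4.3.3, limma 3.58.1), with Benjamini-Hochberg adjustment over all features of a fit. A call needed more than 1.5-fold and an adjusted p under 0.05, or that p alone for a difference between effects. Each SE is the log2 fold change divided by the square root of F. CPM uses TMM over all 50 libraries. At these depths 3 counts equal 0.428 to 1.03 CPM (group medians), and counting error alone limits lower values. Col-0, med12 and med13 shared 1 fit, as did the 4 dark and light groups, and other comparisons used the groups they name. Alternatives were DESeq2 1.42.0, RLE size factors, no filter, the replicate number as a block, all 50 libraries in 1 fit, each library left out in turn, and CPM by RLE size factors or total counts. Replicate numbers did not pair samples (r of deviations -0.39 to 0.15 over 13 comparisons). Named genes were the members, the disrupted genes, pathway genes called in med12 or med13 against Col-0, FT, SOC1, the 2 genes most like each member and antisense genes. The tests were checked on simulated data only for med12 against Col-0 and for morc1/med12 against morc1. Changes were placed only in the more abundant features. Differences between effects and duplicate removal were not simulated. Promoters, exons and coordinates are from RefSeq's TAIR10.1, in which all 70 IDs used were found; proteins were not analysed here.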

Additional observations from a re-analysis of the deposited data

Results flagged for a closer look

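In a group of 4 libraries, 1 library lay far from the other 3 in 4 of the 56 combinations of member and group tested, and chance flags about 1 in 20. MAF4 was at 2.8 CPM in med12 replicate 4 against 4.89 to 5.12 in the others, and MAF5 at 2.2 CPM in ddc/med13 replicate 4 against 0.34 to 0.62, which is 8 counts against 1 or 2. MAF2 was at 66.9 CPM in morc1/med13 replicate 4 against 61.2 to 61.4, and MAF3 at 21.1 CPM in SDC:GFP wild type replicate 2 against 22.9 to 23.0.

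The effect of a mutation differed between settings in 7 cases by edgeR's test of the difference itself. Between dark and long days the med12 effect differed by -1.95 for MAF4, -1.29 for MAF5, -1.04 for FLC and -0.19 for FLM (log2). The med13 effect differed by -0.38 for SVP between morc1 and wild type, and by -1.16 for FLC and -0.26 for MAF2 between ddc and wild type. Each contrast sets long-day against dark libraries, or SDC:GFP plants against plants without the transgene. Other differences between these libraries cannot be told apart from the condition or genotype. In the ddc contrast the med13 alleles differ as well, CRISPR against gct-2.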

How the results depend on the processing

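The number of members that passed stayed within 1.5 times of the reported one in 89 results of another setting, and moved further in 6. The 89 include the counts of group means within 1 SD, given below for RLE size factors and total counts. With 1 library left out, the number of members stayed within 1.5 times in 159 results and moved further in 13. With no filter and with all 50 libraries in 1 fit, 2 members passed in morc1/med13 against morc1, MAF5 being added. The med12 effect between dark and long days differed for 2 members instead of 4 with all 50 libraries in 1 fit, with no filter and with DESeq2, MAF5 (log2 differences -1.27, -1.27 and -1.30) and FLM (-0.18, -0.18 and -0.20) being lost, and the med13 effect between ddc and wild type for 1 instead of 2 with DESeq2. The cause was not tested. Leaving out 1 library gave 0 to 1 members for med13 against med12, 0 to 1 for morc1/med12 against morc1, 2 to 3 for med12 dark against Col-0 dark, 2 to 4 for the med12 effect between dark and long days, 1 to 2 for the med13 effect between morc1 and wild type and 1 to 3 for that between ddc and wild type. FLC changed sign in 2 cases that had not passed: morc1 against SDC:GFP wild type (-0.019 to 0.21) and med12 light against dark (-0.14 to 0.029). With DESeq2 the light effect differed between genotypes for 60 features, with all libraries in 1 fit for 5, against 221, and light changed 338 features in Col-0 and 116 in med12 with all libraries in 1 fit, against 610 and 375. The replicate block changed no call of a member (FLC in morc1/med13 against morc1 had a log2 fold change of 2.51 with the block and 2.52 without). No paired analysis was possible for morc1/med12 because its morc1 controls carry other numbers. Of the 98 group means, 98 stayed within 1 SD with RLE size factors and 76 with total counts, where means moved by 0.936 to 1.05 times. Depth limits MAF5 and FT, at a few counts in many libraries.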
